A study of Mus musculus with 6 samples.

Results

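The CD2, SLAM and CD5 families are groups of surface receptors through which lymphocytes touch and tune each other, and 10 genes were followed here: Cd2, Cd48, Ly9, Slamf1, Cd84, Slamf6, Slamf7, Cd5 and Cd6 and, from the CD28 family, the inhibitory receptor gene Ctla4. They were picked by gene symbol from 19938 genes measured by a probe set with exactly 1 gene symbol, taking the probe set with the highest mean over the 6 arrays. Each of the 10 genes had 1 such probe set, so brightness decided nothing among them, and no filter on low values was applied. The list was drawn up with earlier results of the same comparison known, so the differences below are a description and no p-value is given for these 10 genes.

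The 6 samples were mouse B cell precursors transformed by the kinase BCR-ABL1, which arises from the Philadelphia chromosome and drives a form of acute lymphoblastic leukemia. Of these, 3 were wild type for Etv5 and 3 were Etv5 knockout. Etv5 encodes an ETS-family transcription factor. All 6 carried BCR-ABL1 and the strain label 129SvEv, so no untransformed control enters the comparison. The labels used here give neither the age of the mice, nor how the Etv5 allele was deleted, nor whether replicates are different mice or cultures, so each error and p-value covers the spread of these samples alone, which could be technical.

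CD2 is an adhesion receptor of T and NK cells that in mice also appears on B cell precursors at the pre-B stage, and its main mouse ligand is CD48. The SLAM receptors are mostly their own ligands, each binding the same molecule on a neighbouring cell, and their tyrosine motifs recruit the small adaptors SAP (Sh2d1a) and EAT-2 (Sh2d1b1). CD5 and CD6 are scavenger-receptor cysteine-rich proteins that dampen antigen receptor signalling; CD5 marks T cells and B-1a cells, and CTLA4, a CD28 relative, competes for CD80 and CD86.

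B lineage markers were bright in both genotypes, as the label of the cells has it. Mean log2 signals of the precursor markers Cd79a, Ebf1 and Igll1 lay between 13.63 and 14.29 in the wild-type arrays and between 13.63 and 14.25 in the knockout. As a mark for dim signals, the 95th percentile of the means of 1027 olfactory receptor genes was 7.28 log2 units; a signal below it was not shown to be above background. Over whole arrays, medians lay between 7.79 and 7.84 and correlations across probe sets between 0.991 and 0.997. Of the pair of Etv5 probe sets, one read 9.30, 9.52 and 9.27 in the wild-type arrays and 8.97, 8.91 and 8.92 in the knockout, and the other read 11.48, 11.52 and 11.46 against 11.67, 11.88 and 11.73. They thus differed in opposite directions, with a limma adjusted p of 0.0467 for the first and 0.13 for the second. Where either lies in the genome, or relative to the deleted part, is not given in the sources used here.

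Of the 10 receptor genes, 1 passed limma at an adjusted p of 0.05 as higher in the knockout (Cd2) and 4 as lower (Ctla4, Slamf7, Cd5 and Slamf6), while 5 did not pass. Over all 19938 genes, 4.43% passed in either direction, 2.42% higher and 2.01% lower, and of all 35556 probe sets 3.08% passed. The knockout and wild-type values did not overlap in 7 of the 10 genes, beside 20.5% of all genes. Since the list was chosen with this comparison known, nothing is read from these shares. The median difference of the 10 genes, knockout minus wild type, was -0.071 log2 units, beside -0.0039 over all genes. The differences ran from -1.45 to 1.48. In these bulk samples, fewer cells of a type and less RNA per cell cannot be told apart.

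**Figure D1:**
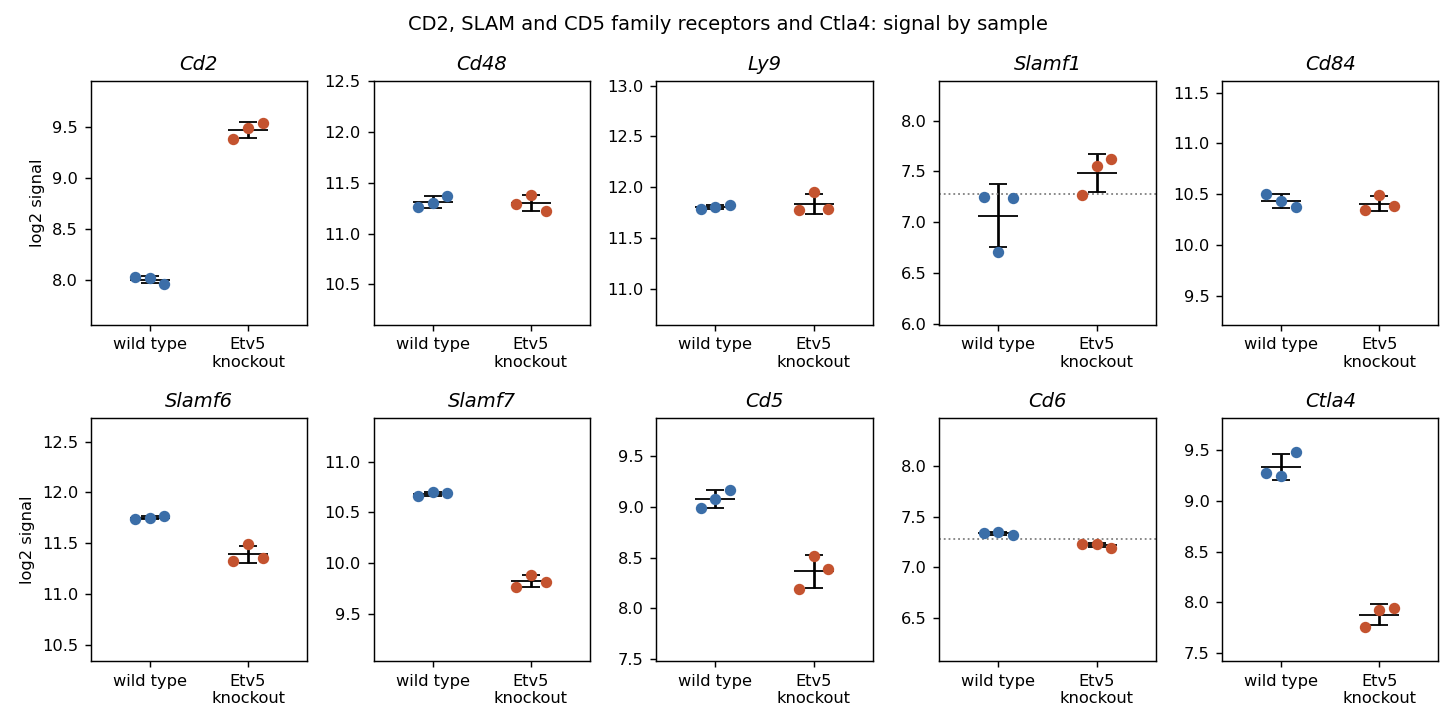
Log2 signal (vertical axis, each panel spanning the same number of log2 units) of the 10 receptor genes in the 3 wild-type (blue) and 3 Etv5 knockout (red) samples; bars are mean ± SD and the dotted line, where in range, is the dim-signal mark of 7.28. Cd2 is higher in all 3 knockout samples, Ctla4, Slamf7, Cd5 and Slamf6 are lower in all 3, and the Cd48, Ly9 and Cd84 groups overlap.

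Cd2 rose in the knockout, and the gene of its ligand, Cd48, did not pass. Cd2 (probe set 10500677) read 8.02, 8.01 and 7.96 in wild-type samples 1 to 3, against 9.39, 9.50 and 9.54 in the knockout samples. Every knockout value lay more than 1 log2 unit above every wild-type value. The means were 7.998 ± 0.035 and 9.47 ± 0.078 (log2 signal, SD, n = 3), a 2.78-fold rise (log2 difference 1.48 ± 0.060, SE, 95% interval 1.33 to 1.62). Cd48 (probe set 10351658), which encodes a lipid-anchored protein that also binds the receptor 2B4, was bright in every sample: 11.26, 11.30 and 11.37 in the wild type against 11.29, 11.38 and 11.22 in the knockout. The groups overlapped and the difference was -0.0085 (95% interval -0.16 to 0.15). The gene for 2B4, Cd244a, which is no part of the 10, differed by 0.17 (95% interval -0.03 to 0.38, limma adjusted p = 0.556).

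Among the homophilic SLAM receptors, Slamf7 and Slamf6 fell, and Ly9 and Cd84 did not pass. Slamf7 encodes CRACC, a receptor of NK, B and plasma cells. Its probe set, 10360173, read 10.66, 10.70 and 10.69 in the wild-type arrays and 9.77, 9.89 and 9.82 in the knockout. The spread within each genotype was small beside the gap, with means of 10.68 ± 0.020 and 9.82 ± 0.061 (SD, n = 3) and a 1.82-fold lower signal in the knockout (log2 difference -0.86 ± 0.053, SE). Slamf6 (probe set 10351691), which encodes the receptor Ly108, read 11.74, 11.75 and 11.77 in the wild-type arrays and 11.33, 11.49 and 11.35 in the knockout. The groups lay apart, but the gap was smaller, a log2 difference of -0.36 ± 0.060 (SE, 1.29-fold lower).

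Ly9 (probe set 10360158), the gene for CD229, read 11.79, 11.81 and 11.82 in the wild-type arrays and 11.77, 11.95 and 11.79 in the knockout, and Cd84 (probe set 10351679), the gene for SLAMF5, read 10.50, 10.43 and 10.37 against 10.34, 10.49 and 10.38. In both genes the groups overlapped. The differences were 0.033 (95% interval -0.12 to 0.19) for Ly9 and -0.028 (95% interval -0.18 to 0.13) for Cd84. Slamf1 encodes CD150, a receptor used with CD48 to sort blood stem cells. Its probe set, 10351667, read 7.24, 6.71 and 7.24 in the wild-type arrays and 7.27, 7.56 and 7.62 in the knockout. Wild-type sample 2 stood lowest, and the highest wild-type and lowest knockout values nearly met. The wild-type mean of 7.06 ± 0.31 (SD, n = 3) was below the dim-signal mark, and the difference of 0.42 had a 95% interval of -0.0024 to 0.84, so a difference could not be settled at this spread; without wild-type sample 2 it was 0.24.

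Cd5 fell, and its neighbour and relative Cd6 was near the dim-signal mark in both genotypes. Cd5 (probe set 10466040) read 8.99, 9.08 and 9.17 in the wild-type arrays and 8.19, 8.52 and 8.38 in the knockout. The knockout samples were all lower but more spread, with means of 9.08 ± 0.089 and 8.36 ± 0.17 (SD, n = 3), a log2 difference of -0.72 ± 0.098 (SE, 1.64-fold lower). Cd6 (probe set 10466054) read 7.33, 7.35 and 7.31 against 7.23, 7.23 and 7.19. These groups did not overlap, yet the difference was only -0.11 (95% interval -0.23 to -0.0018) and did not pass, and the knockout mean of 7.22 lay below the mark.

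Ctla4 showed the greatest fall of the 10 genes. Its probe set, 10346790, read 9.28, 9.24 and 9.48 in the wild-type arrays and 7.76, 7.93 and 7.95 in the knockout. All 3 knockout samples lay more than 1 log2 unit below all wild-type samples. The means were 9.33 ± 0.13 and 7.88 ± 0.10 (SD, n = 3), a 2.74-fold lower signal (log2 difference -1.45 ± 0.088, SE, 95% interval -1.67 to -1.24).

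The calls of Cd2, Slamf7 and Ctla4 held whichever of the 6 samples was left out. Slamf6 passed in 1 of these 6 fits, that without knockout sample 2. Cd5 passed in 2, those without knockout sample 1 or knockout sample 2, and not without knockout sample 3 or any 1 of the wild-type samples. Across these fits the difference of Cd5 stayed between -0.79 and -0.63 and that of Slamf6 between -0.41 and -0.33. Within the knockout, sample 1 gave the lowest value for 8 of the 10 genes and sample 2 the highest for 6, and this order held for Cd5, Slamf6 and Slamf7 as for Ly9 and Cd84; its part in the result was not tested.

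The 10 genes lie at 4 places of the genome, and none of the 33 measured genes beside them passed limma. Ly9, Slamf7, Cd48, Slamf1, Cd84 and Slamf6 follow each other in this order on chromosome 1 in the RefSeq gene table, with no other measured gene between them. Slamf7 thus fell while Ly9 on one side and Cd48 on the other did not pass, and their 95% intervals did not meet that of Slamf7, which ran from -0.99 to -0.73. Of the 8 nearest measured genes outside the cluster, 4 on each side, none passed; their differences ran from -0.13 to 0.17. Around Cd2 on chromosome 3, none of 8 genes passed, the furthest from 0 being the transporter gene Slc22a15 at 0.32 (limma adjusted p = 0.14). Around Cd5 and Cd6 on chromosome 19, none of 9 genes passed and the differences ran from -0.22 to 0.063. Beside Ctla4 on chromosome 1, the related genes Cd28 and Icos differed by 0.15 and 0.091 and had dim signals of 6.19 and 7.16 in the wild type. Raph1, next to Cd28, differed by 0.44 without passing (limma adjusted p = 0.0704). Of the 8 neighbours of Ctla4, 3 had an unadjusted limma p under 0.05. These were Raph1, Cyp20a1 (difference 0.17) and Pard3b (0.13), all higher in the knockout. In all, 0 of 33 neighbours passed limma, beside 4.43% of all genes. An unadjusted limma p under 0.05 was found for 5 of the 33, beside 13.4% of all genes. Of the alternative settings, Raph1 passed in 4 and Slc22a15 in 2.

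**Figure D2:**
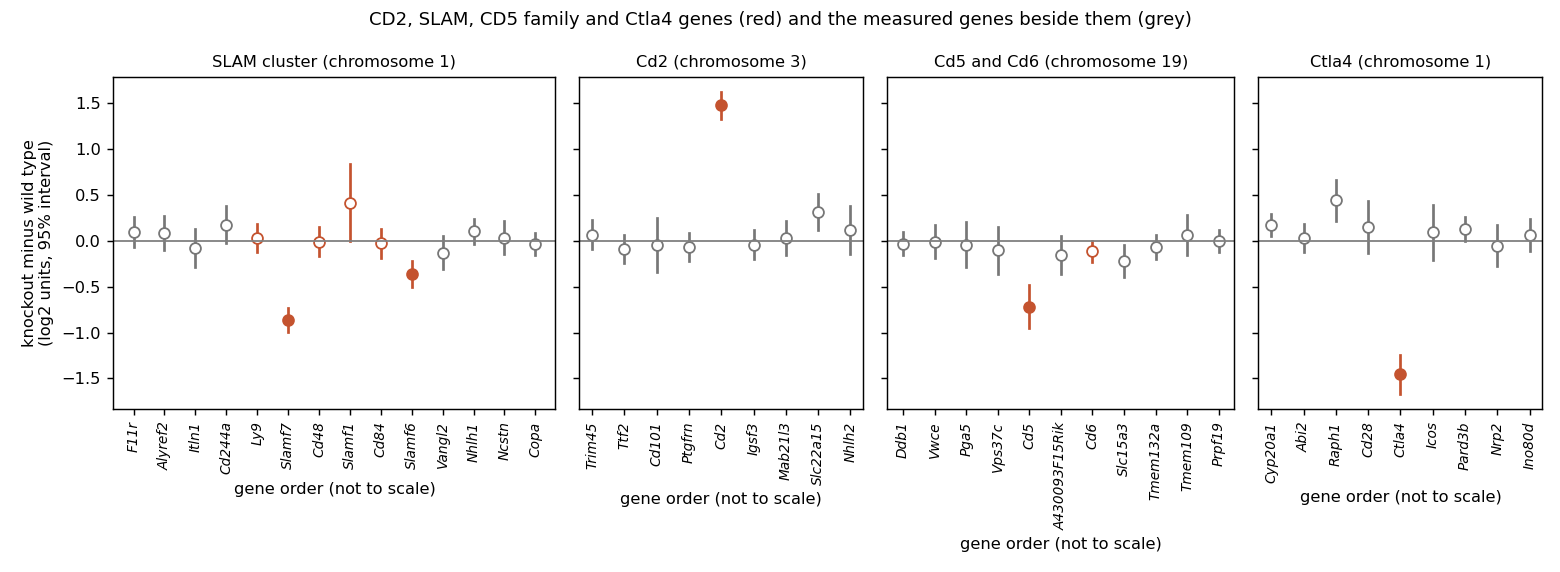
Difference between knockout and wild type (log2 units, vertical axis) of the receptor genes (red) and the measured genes beside them (grey), in chromosomal order and not to scale; lines are 95% intervals and filled points passed limma at an adjusted p of 0.05. The filled points are Slamf7, Slamf6, Cd2, Cd5 and Ctla4, and none of the 33 grey points is filled.

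The stretches just upstream of the 4 genes that fell are shown because Etv5 encodes an ETS factor and ETS factors bind DNA around the core GGAA; Cd48, which did not pass, is added as the neighbour of Slamf7. Promoter sequences of RefSeq (GRCm38.p6) were matched for 7 of the 10 genes. The 250 bases before the annotated start are printed on the strand of the gene, with each GGAA, or TTCC where the core is on the other strand, in capitals.
Ctla4: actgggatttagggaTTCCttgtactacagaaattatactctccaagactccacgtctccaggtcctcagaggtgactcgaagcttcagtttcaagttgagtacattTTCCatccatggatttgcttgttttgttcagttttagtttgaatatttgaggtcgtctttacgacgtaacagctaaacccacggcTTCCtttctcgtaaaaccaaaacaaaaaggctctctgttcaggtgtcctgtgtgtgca
Slamf7: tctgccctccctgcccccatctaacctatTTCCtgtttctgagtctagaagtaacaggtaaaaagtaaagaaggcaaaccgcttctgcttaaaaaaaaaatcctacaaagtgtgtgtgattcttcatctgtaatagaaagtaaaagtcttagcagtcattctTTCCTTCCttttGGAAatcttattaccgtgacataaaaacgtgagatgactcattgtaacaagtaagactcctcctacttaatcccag
Cd5: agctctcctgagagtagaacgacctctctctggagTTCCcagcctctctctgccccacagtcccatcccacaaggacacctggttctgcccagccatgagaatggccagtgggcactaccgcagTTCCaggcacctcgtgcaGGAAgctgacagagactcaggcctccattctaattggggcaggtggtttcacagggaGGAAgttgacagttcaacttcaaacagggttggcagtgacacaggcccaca
Slamf6: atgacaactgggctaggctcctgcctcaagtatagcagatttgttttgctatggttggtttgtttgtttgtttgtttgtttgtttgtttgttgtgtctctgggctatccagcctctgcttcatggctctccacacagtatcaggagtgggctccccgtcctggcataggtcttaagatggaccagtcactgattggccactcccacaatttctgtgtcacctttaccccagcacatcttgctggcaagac
Cd48: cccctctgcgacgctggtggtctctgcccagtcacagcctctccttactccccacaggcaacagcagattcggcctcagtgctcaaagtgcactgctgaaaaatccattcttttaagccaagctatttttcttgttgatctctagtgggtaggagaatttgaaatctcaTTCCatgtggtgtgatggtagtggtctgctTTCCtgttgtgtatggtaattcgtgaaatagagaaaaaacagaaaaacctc

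These windows are chr1:60908775-60909024 on the plus strand for Ctla4, chr1:171649000-171649249 on the minus strand for Slamf7, chr19:10738975-10739224 on the minus strand for Cd5, chr1:171917212-171917461 on the plus strand for Slamf6 and chr1:171681742-171681991 on the plus strand for Cd48. Counting both strands, GGAA occurred 3 times upstream of Ctla4, 4 times for Slamf7, 4 times for Cd5, 0 times for Slamf6 and 2 times for Cd48. Slamf1 and Cd84, which did not pass, had 5 each. The core is common: 93.4% of 32851 promoter windows of the same length held it, with a median of 3 matches. The longer CGGAAG, which contains GGAA, occurred in 13.6% of all windows, and CCGGAAGT, which contains both, in 2.88%; 0 of the 7 matched windows held either. A core held by 93.4% of all windows, and by 6 of these 7, could hardly separate genes that fell from those that did not pass. No window was matched for Cd2, the receptor gene that rose, nor for Cd6 and Ly9. The match is a description of letters, not of binding.

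Partners of these receptors passed in both directions, but only Grap2, which fell, held its call whichever sample was left out. Of 14 measured signalling partners of the SLAM receptors and CD2, 1 rose, 2 fell and 11 did not pass, with a median difference of 0.034 log2 units. Over all genes, 4.43% passed in either direction. The partner and marker lists, too, were chosen with earlier results of these data known, so nothing is read from their counts. The actin regulator gene Was, whose product is linked to CD2 through PSTPIP1, fell by 0.37 on the log2 scale (limma adjusted p = 0.0349), Prkcq, a protein kinase C of lymphocytes, fell by 0.32 (adjusted p = 0.0441), and Ptpn6, the phosphatase SHP-1, rose by 0.29 (adjusted p = 0.0437). The inhibitory kinase gene Csk differed by 0.30 (adjusted p = 0.056). The adaptor genes through which SLAM receptors signal were dim: Sh2d1a averaged 6.27 and 6.26 and Sh2d1b1 6.38 and 6.46 in wild type and knockout, below the mark of 7.28. Fyn, the kinase that SAP brings to the receptors, was bright and differed by 0.03.

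Of 15 measured partners of CD5 and CD6, 2 rose, 3 fell and 10 did not pass, with a median difference of -0.016. The share of all genes that passed was 4.43%. Grap2, the adaptor Gads that joins LAT to SLP-76, read 12.32, 12.33 and 12.44 in the wild-type arrays and 11.43, 11.57 and 11.49 in the knockout. The groups lay apart, and the log2 difference was -0.86 ± 0.063 (SE, limma adjusted p = 0.00148). Sh2d2a, the adaptor TSAd that binds Lck, fell by 0.77 (adjusted p = 0.00951) and Ubash3a, a restraint on antigen receptor signalling, fell by 0.64 (adjusted p = 0.0122). The kinase genes Syk and Zap70 rose by 0.34 and 0.33 (limma adjusted p = 0.0265 and 0.047). The CD6 ligand gene Alcam was dim in both genotypes, at 6.76 and 6.72. In the fits that left out 1 sample, Grap2 held its call in 6 of 6; Sh2d2a lost it without wild-type sample 1 or knockout sample 3, Ubash3a without knockout sample 3 or wild-type sample 1 or 3, Was in all but that without knockout sample 2, and Syk, Zap70, Prkcq and Ptpn6 in all 6 (highest adjusted p 0.197).

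Among 12 further genes of the CD28 family, its B7 ligands and their partners, 1 rose, none fell and 11 did not pass. Ctla4, which fell, is not counted among these 12. Among all genes, 4.43% passed and 13.4% had an unadjusted limma p under 0.05. Cd80, which encodes a ligand of CTLA4, read 6.62, 6.87 and 6.52 in the wild-type arrays and 7.48, 7.53 and 7.67 in the knockout. All 3 knockout values stood above the wild-type values, and the difference was 0.89 ± 0.10 (SE, limma adjusted p = 0.00852; 0.0513 without wild-type sample 1). Its wild-type mean of 6.67 lay below the dim-signal mark, so the size of the rise is uncertain. Cd80 has a further, dimmer probe set, which differed by less, and the mean of both differed by 0.53 (limma adjusted p = 0.0191). With the sample number as a replicate block, the brighter probe set did not pass (limma adjusted p = 0.0515). Cd86, the other CTLA4 ligand, was dim at 6.23 and 6.31. Of 8 further receptors of the CD2, SLAM and scavenger families, none passed limma and 1 had an unadjusted p under 0.05, Slamf9, which differed by 0.25 (adjusted p = 0.198).

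The listed T cell, NK cell and myeloid markers did not pass. For the counts below, the shares of all genes were 4.43% passing and 13.4% with an unadjusted limma p under 0.05. None of 10 T cell markers passed limma (2 at an unadjusted p under 0.05), and the mean of their levels lay between 7.48 and 7.58 in the wild-type samples and between 7.43 and 7.59 in the knockout samples. Cd3d, Cd3g, Cd4 and Cd8b1, 4 of the 10, were below the dim-signal mark in both genotypes, and Cd3e, Cd247, Cd8a, Thy1, Bcl11b and Lat were above it. Lat, an adaptor of antigen receptor signalling, was bright at 10.89 and 10.70 and differed by -0.20 (limma adjusted p = 0.234). Cd3e, a subunit of the T cell receptor complex, read 7.68 in the wild-type arrays and 7.71 in the knockout. None of 8 NK cell markers passed (2 unadjusted), 7 of them were below the mark in both genotypes, and their mean levels lay between 6.503 and 6.596 over all 6 samples. None of 9 myeloid markers passed (1 unadjusted), with mean levels between 6.997 and 7.172 over all 6 samples. Of these markers, 6 were below the mark in both genotypes, and Lyz2 and Cd68 were among those above it. Lyz2 averaged 8.89 in wild-type and 8.57 in knockout arrays, a difference of -0.32 (limma adjusted p = 0.473). Cd68 averaged 8.99 and 9.33, a difference of 0.34 (limma adjusted p = 0.278). The groups of Lyz2 and of Cd68 did not overlap. Of 7 genes known from B-1 cells, the subset on which CD5 and CTLA4 are found, 2 rose (Bhlhe41 and Itgam), 1 fell (Cd9) and 4 did not pass. Bhlhe41 kept its call in all 6 fits that left a sample out, whereas Cd9 lost it without knockout sample 2 or wild-type sample 1 or 2 (highest adjusted p 0.0863) and Itgam without knockout sample 1 or 2 or wild-type sample 1 or 3 (highest 0.112). The wild-type mean of Itgam, 7.24, and that of Bhlhe41, 6.98, lay below the dim-signal mark. Il5ra differed by -0.52 (limma adjusted p = 0.0633). Of 9 B cell precursor markers, Pax5 rose by 0.43 (adjusted p = 0.0127) and 8 did not pass; Pax5 lost its call without knockout sample 3 or wild-type sample 1 or 2 (highest adjusted p 0.0751).

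**Figure D3:**
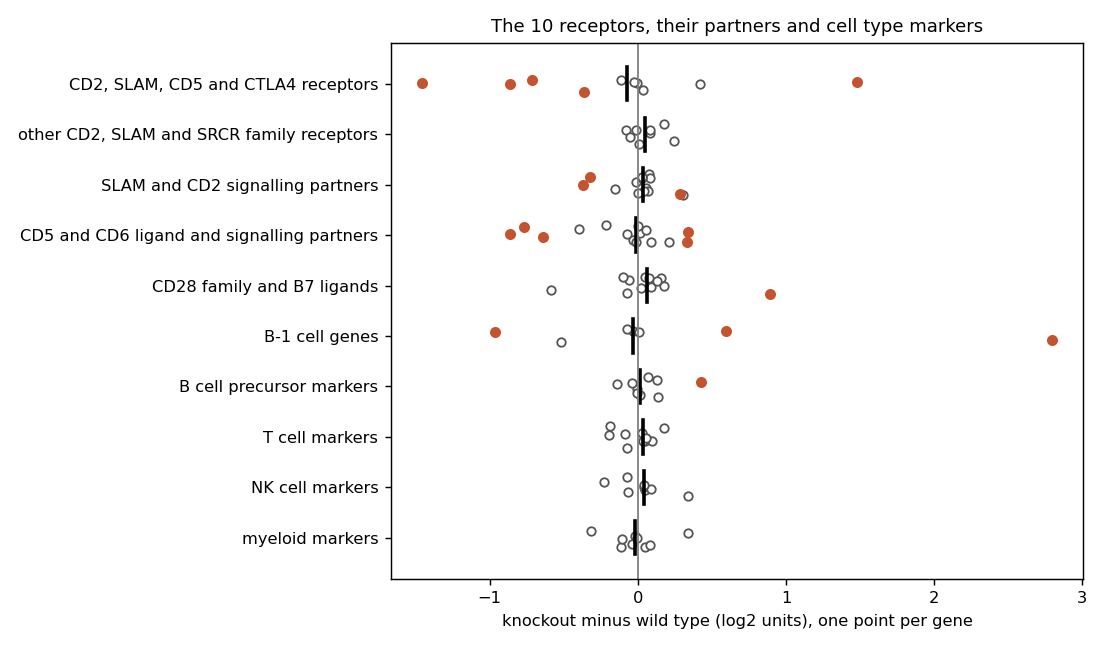
Difference between knockout and wild type (log2 units, horizontal axis), 1 point per gene, for the 10 receptors, the lists of their relatives and partners and the marker lists; filled red points passed limma at an adjusted p of 0.05 and black bars are list medians. The T cell, NK cell and myeloid rows hold no filled point. The 10 receptors and the other lists were all chosen with earlier results of these data known, so the rows are not set against each other.

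For Cd2 and Cd5 the genes with the most similar profile were found as those with the smallest root mean square difference of mean-centred log2 values over the 6 arrays, among 19937 other genes. Closest to Cd2 were Foxc1 (0.041 log2 units), Cpe (0.055), Lhx2 (0.069) and Depdc7 (0.088), and closest to Cd5 were Mlkl (0.035), Emp1 (0.040), Plekhb2 (0.050) and Tes (0.052). The transcription factor gene Foxc1 read 9.56, 9.48 and 9.51 in the wild-type arrays and 10.90, 11.06 and 11.00 in the knockout, a difference of 1.47 beside the 1.48 of Cd2. Mlkl, the effector of necroptosis, differed by -0.67, beside the -0.72 of Cd5. It had the same order of samples within each genotype as Cd5. Since these genes were picked for likeness over the same 6 arrays, near-equal differences and a like order follow from the choice.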

How the data were processed

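Biotin-labelled total RNA was measured on Affymetrix arrays, per the labels' protocols. The values deposited by the authors are log2 signals, judged from their range of 2.58 to 14.71, for 35556 probe sets and 6 samples. RMA and Partek 6.5 stand in the submitters' processing notes; RMA makes changes of dim signals look smaller. The settings of RMA, filters and detection calls were not given in the sources used here. The number of arrays limits the precision.

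Titles gave the genotypes. Names came from the platform annotation: 21789 had 1 gene symbol, 1621 several and 12146 none. Positions of the probes are not given, so the GRCm38.p6 gene table served only for gene order. One limma fit (version 3.58.1, R 4.3.3; lmFit, then eBayes, no covariate) held all 6 samples, with Benjamini-Hochberg adjustment over all probe sets at 0.05; the script was tested on simulated data. Differences are knockout minus wild type. An exact permutation test of 3 against 3 cannot go below p = 0.10 and was not used.

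The 10 receptor genes and the gene lists were chosen with earlier results of these data known. Named by rule besides the 10 were, per list, the genes that passed and, up to a total of 4, those with the smallest p. The rule also took Etv5 and the 4 nearest measured genes on each side of a locus. It added the 4 most similar profiles of Cd2 and of Cd5. Not all genes named by rule are described in the text. Fyn, Sh2d1a, Sh2d1b1, Alcam, Cd86, Cd79a, Ebf1, Igll1 and the T cell markers were described after their values were seen. Listed genes without a single-gene probe set, such as Lck and Lyn, were not analysed here. The labels do not say whether same-numbered samples of the genotypes were prepared together, and the main fit did not pair them. Deviations of same-numbered samples correlated at -0.12, 0.016 and 0.26. With so few samples per genotype, these values cannot decide whether the numbers pair the genotypes. Alternatives tried were the number as a block, a filter on dim signals, probe sets with 1 symbol alone, 3 between-array normalizations (quantile, median, cyclic loess), a robust variance trend, array weights, averaged probe sets, other thresholds and each sample left out.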

Additional observations from a re-analysis of the deposited data

How the results depend on the processing

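The rise of Cd2 and the falls of Slamf7 and Ctla4 held in all 15 alternatives, 1 of which, averaging the probe sets of each gene, changes nothing for genes with 1 probe set. Cd5 passed in 11 of 15 and Slamf6 in 9 of 15. Cd6 and Slamf1 passed in none and fell out of the test when the dimmest 40% of probe sets were left out. The small differences of Cd48, Cd84 and Ly9 changed sign in 2, 2 and 1 alternatives. Leaving out 1 sample at a time gave 565 to 857 changed probe sets (1095 with all samples), 1 to 1 receptor genes higher and 2 to 4 lower. The probe sets numbered 565 without wild-type sample 1, 620 without wild-type sample 2 and 586 without knockout sample 3. With the sample number as a replicate block, 544 probe sets passed, with 1 receptor gene higher and 3 lower (Slamf6 lost its call); not every sample correlated best with its own number. At an adjusted p of 0.01, 538 probe sets passed, with 1 receptor gene higher and 2 lower. The causes were not tested. Over the 88 genes named by rule, not all of them described above, 1198 of the recomputed values kept their side of the threshold. Of the others, 75 lost their call and 21 gained one, and 0 called values reversed. The 1198 include genes that passed in no fit, whereas the 75 can come only from genes that passed in the main fit. Some alternatives, such as the block, left the differences themselves unchanged, so none could reverse there. With 3 arrays a genotype and no detection calls, changes of Cd6, Slamf1 and Cd80 near the dim-signal mark are the least certain.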
